A study of Homo sapiens with 4 samples.

Results

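The endothelin and renin-angiotensin genes described here are EDN1, EDN2, ECE1, EDNRA, EDNRB, AGT, ACE and AGTR1, which are 8 of the 25683 gene names with a value on every array. They were found by gene name among the probes that are not controls, and 11 probes read them. They were chosen by name with their levels on these same arrays already known, so the levels are given as a description.

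Expression was measured in human proximal tubular cells (HPTCs) of 2 immortalised lines. HK-2 cells carry oncogenes of a papillomavirus and RPTEC/TERT1 cells carry the catalytic subunit of telomerase, so each group stands for 1 cultured line rather than for tubules. Both lines were grown to confluence in normoglycemic medium, HK-2 in a keratinocyte medium with FBS and RPTEC/TERT1 in DMEM and Ham's F-12 with insulin, transferrin, EGF and hydrocortisone. Starvation for 24 h was followed by 24 h with IL-1β at 10 ng/mL together with empagliflozin (Empa) at 500 nM, an inhibitor of the sodium-glucose cotransporter SGLT2. Each line had 2 arrays, named array 1 and array 2 here after their replicate number in the labels, and the methods call them biological duplicates. All 4 arrays shared IL-1β and Empa. Arrays of unstimulated cells and of cells given IL-1β without Empa were not analysed here. No effect of either agent was therefore measured.

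Endothelins are short peptides that constrict vessels and, in the kidney, also act on salt handling, inflammation and matrix deposition. They are cut from longer precursors, first to a big endothelin and then by endothelin-converting enzyme to the active peptide, which binds the receptors A and B. In the renin-angiotensin system, angiotensinogen is cut to angiotensin I, angiotensin-converting enzyme makes angiotensin II from it, and angiotensin II acts mainly through the AT1 receptor. Proximal tubules are known to make components of both systems, and the vascular endothelium is the classical source of endothelin-1.

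The 75th percentile of the processed signal lay between 393 and 748 on the 4 arrays, and between 59.2% and 64.9% of the 43118 spots were marked as well above background. A level is the log2 ratio of the processed signal to that percentile, with a common floor of -5.37, and a level of 0 equals the percentile. Probes spotted 10 times had a median SD between spots of 0.082 to 0.14 on the log2 scale. The arrays did not group by their labels. Across 17928 genes, the Pearson correlation was 0.980 between HK-2 array 1 and RPTEC/TERT1 array 2 and 0.976 between HK-2 array 2 and RPTEC/TERT1 array 1, against 0.865 within HK-2 and 0.855 within RPTEC/TERT1. The cell line of an array is therefore named only as its label gives it, each array is described on its own, and directions between the cell lines rest on these labels. Arrays numbered 1 were scanned on 1 day and arrays numbered 2 on another, so replicate and scan day cannot be told apart.

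EDN1 encodes the precursor of endothelin-1. Its gene-level value was 0.77 on HK-2 array 1 and 1.11 on RPTEC/TERT1 array 2, and -5.26 on HK-2 array 2 and -5.30 on RPTEC/TERT1 array 1, close to the floor. Hence EDN1 was bright on 1 array of each label and at or near background on the other. In a culture, fewer cells that express a gene and less RNA per cell cannot be told apart.

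EDN1 was read by 2 probes on the plus strand of chromosome 6, positioned on GRCh37 by the files. Probe A_23_P214821 lies at chr6:12296672-12296731 and was spotted 10 times. Probe A_33_P3258392 lies at chr6:12296218-12296277, in the coding sequence shortly before the stop codon, and was spotted once. Its 60 bases are shown because this second probe gives a reading of EDN1 that does not share the sequence of the first.
EDN1 probe A_33_P3258392: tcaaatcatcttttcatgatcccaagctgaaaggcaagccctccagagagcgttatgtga

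Over its 10 spots, A_23_P214821 had a processed signal of 1597 ± 97.5 (SD between spots, range 1472 to 1766) on HK-2 array 1 and of 2120 ± 90.5 (1933 to 2207) on RPTEC/TERT1 array 2. On HK-2 array 2 the signal was 21.2 ± 2.79 (16.9 to 26.0), with 5 of the 10 spots well above background. On RPTEC/TERT1 array 1 it was 10.6 ± 4.95 (5.27 to 21.0), with 2 of the 10 spots well above background. The spots of the bright arrays and those of the dim arrays did not come near each other, and spot noise was small beside the gap. Relative to the 75th percentile the signal was 406% on HK-2 array 1, 2.84% on HK-2 array 2, 2.17% on RPTEC/TERT1 array 1 and 495% on RPTEC/TERT1 array 2.

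The second EDN1 probe gave the same order of bright and dim arrays. Its processed signal was 284 on HK-2 array 1 and 401 on RPTEC/TERT1 array 2, where it was well above background, and 15.4 on HK-2 array 2 and 6.71 on RPTEC/TERT1 array 1, where it was not. The error that Feature Extraction gives for the spot was 28.7, 40.3, 5.92 and 3.11 in that order. No spot of EDN1, or of any other gene described here, was saturated.

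After scaling, A_23_P214821 was 143-fold brighter on HK-2 array 1 than on HK-2 array 2. Within RPTEC/TERT1 it was 228-fold brighter on array 2 than on array 1, where it was not well above background. In such cases a fold is taken against the higher of the probe's own signal and the lowest signal well above background on that array. Against the latter it is a bound, given as "at least". Against the probe's own dim signal it is a ratio as uncertain as that signal, and no bound. For A_33_P3258392 the corresponding folds were 35.1 within HK-2 and 68.1 within RPTEC/TERT1, both against its own dim signal. The arrays HK-2 array 1 and RPTEC/TERT1 array 2 differed from each other by only 1.22-fold with the first probe and by 1.30-fold with the second. Each of these folds compares 1 array with 1 array and carries no test.

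**Figure D1:**
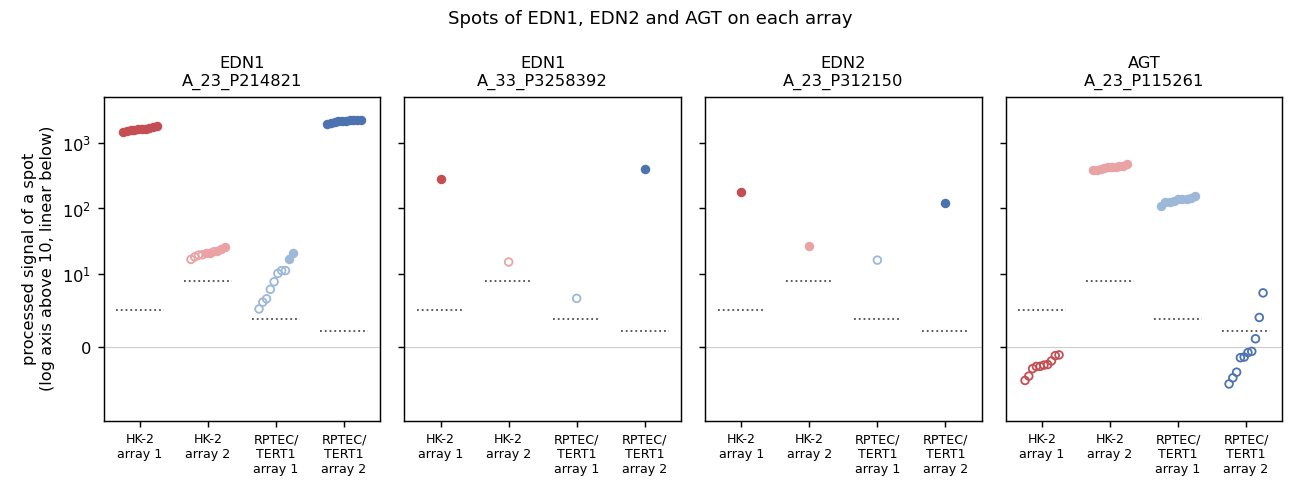
Processed signal of each spot (y axis, log above 10 and linear below) of the probes of EDN1, EDN2 and AGT on the 4 arrays (x axis). Filled points were well above background, open points were not, and dotted lines mark the 95th percentile of the 153 negative controls of the array. EDN1 spots lie at 1472 to 2207 on HK-2 array 1 and RPTEC/TERT1 array 2 with the probe spotted 10 times, and AGT spots stand above background only on the other 2 arrays.

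EDN2 encodes endothelin-2, a peptide closely related to endothelin-1 that binds the same receptors. It was read by 1 spot, A_23_P312150 on the minus strand at chr1:41944456-41944515. The processed signal was 176 on HK-2 array 1, 26.8 on HK-2 array 2, 16.4 on RPTEC/TERT1 array 1, where it was not well above background, and 119.9 on RPTEC/TERT1 array 2. The levels were -1.16, -4.80, -4.89 and -1.84 in this order. EDN2 thus had the same bright arrays as EDN1, with smaller gaps. It was 12.5-fold brighter on array 1 than on array 2 of HK-2. Within RPTEC/TERT1 it was 8.31-fold brighter on array 2 than on array 1, a ratio to its own dim signal there. HK-2 array 1 exceeded RPTEC/TERT1 array 2 by 1.60-fold.

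Of the 16468 genes that entered the test, those well above background on 2 arrays or more, 4.55% were higher by at least 2 log2 units both on HK-2 array 1 over array 2 and on RPTEC/TERT1 array 2 over array 1. EDN1 and EDN2 were among them, with differences of 6.03 and 3.65 within HK-2 and of 6.41 and 3.05 within RPTEC/TERT1. The range of EDN1 over the 4 arrays, 6.41 log2 units, was reached or exceeded by 107 genes, 0.650% of those tested. That of EDN2, 3.74, was reached by 796 genes, or 4.83%. After normexp correction and in the deposited log2 values, the EDN2 difference within RPTEC/TERT1 was 1.36 and 1.19, under 2 log2 units, and that of EDN1 was 4.02 and 3.77. These shares describe where the genes stand and are no test, since the genes were chosen with their values known.

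Endothelin-converting enzyme 1 (ECE1), the membrane protease that releases active endothelin from big endothelin, was well above background on all 4 arrays with each of its 2 probes. Its level was -0.76 on HK-2 array 1, -1.87 on HK-2 array 2, -1.43 on RPTEC/TERT1 array 1 and -0.76 on RPTEC/TERT1 array 2. Probe A_24_P396375, on the minus strand at chr1:21544659-21544718, had processed signals of 918, 881, 687 and 1014 on these arrays, or 234%, 118%, 141% and 237% of the 75th percentile. Probe A_24_P154080, on the minus strand at chr1:21560066-21560125, had signals of 58.6, 47.3, 47.9 and 63.4, or 14.9%, 6.32%, 9.81% and 14.8%. Both probes put the same arrays on top after scaling, by 1.98-fold and 2.36-fold within HK-2 and by 1.68-fold and 1.51-fold within RPTEC/TERT1. For ECE1 the range over the arrays was 1.12, and 46.5% of the genes tested ranged by as much or more, so its changes were of the usual size on these arrays.

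The endothelin receptors were at or near background. EDNRA, the A receptor, which mediates vasoconstriction, was well above background only on HK-2 array 1 and with only 1 of its 2 probes. That probe, A_24_P217572 at chr4:148465478-148465537, had processed signals of 24.5 on HK-2 array 1, 1.93 on HK-2 array 2, 3.69 on RPTEC/TERT1 array 1 and 16.2 on RPTEC/TERT1 array 2. It was at least 4.53-fold brighter on HK-2 array 1 than on HK-2 array 2. Its fold over RPTEC/TERT1 array 2, the next in order, was 1.65, against a signal of its own that was not well above background. The other probe, A_33_P3401701 at chr4:148441029-148441088, had signals of 13.3, 10.1, 4.42 and 5.41 and was not well above background on any array.

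EDNRB, the B receptor, which clears endothelin and in the collecting duct favours salt excretion, had 1 spot, A_24_P330263 at chr13:78470568-78470627 on the minus strand. Its processed signal was 0.515 on HK-2 array 1, 2.51 on HK-2 array 2, 2.19 on RPTEC/TERT1 array 1 and 5.05 on RPTEC/TERT1 array 2. None of these was well above background, and EDNRB was at the floor on all 4 arrays. EDNRA and EDNRB did not enter the test between the cell lines. A signal at this level sets a bound on the probe and does not show that the transcript was absent.

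**Figure D2:**
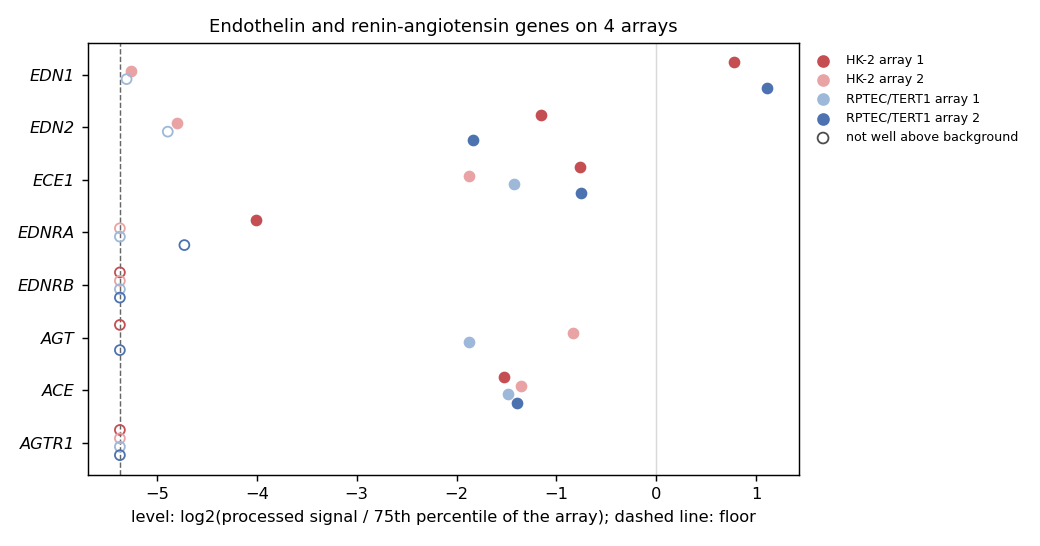
Level of each endothelin and renin-angiotensin gene (x axis, log2 of the processed signal over the 75th percentile of the array) on the 4 arrays, with the floor of -5.37 as a dashed line. Open points were not well above background. EDN1, EDN2 and AGT split the 2 arrays of each label, ACE points lie between -1.53 and -1.36, and EDNRB and AGTR1 sit at the floor.

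AGT encodes angiotensinogen, the precursor of all angiotensin peptides, which proximal tubules are known to secrete into the tubular lumen. It was bright on the arrays where EDN1 was dim. Its probe, A_23_P115261 at chr1:230838531-230838590 on the minus strand, was spotted 10 times. The processed signal was 421 ± 27.8 (SD between spots, range 379 to 469) on HK-2 array 2 and 134 ± 14.2 (108.5 to 157) over 9 spots on RPTEC/TERT1 array 1, where 1 outlier spot was left out. On HK-2 array 1 it was -2.52 ± 1.09 and on RPTEC/TERT1 array 2 it was -0.368 ± 3.81, and 0 of 10 spots were well above background on either array. The levels were -5.37, -0.83, -1.87 and -5.37 on HK-2 array 1, HK-2 array 2, RPTEC/TERT1 array 1 and RPTEC/TERT1 array 2.

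Within HK-2, AGT was at least 23.3-fold brighter on array 2 than on array 1, and within RPTEC/TERT1 it was at least 19.2-fold brighter on array 1 than on array 2. Between the 2 arrays that measured it, HK-2 array 2 exceeded RPTEC/TERT1 array 1 by 2.06-fold, a difference of 1 array against 1 array that carries no measure of the spread between cultures. A difference of at least 2 log2 units in this direction within each label was found for 4.65% of the genes tested. A range as large as that of AGT, 4.54, was found for 449 genes, or 2.73%.

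The AGT difference within HK-2 depends on the background correction. HK-2 array 1 held 6 spots whose local background was over 10 times the median of the array. Normexp correction of the mean spot signals moved the median difference between array 1 and array 2 over all tested genes from 0.062 to 0.99, and that of AGT from -4.54 to 0.38, a change of sign that still left AGT under the median of the genes. Without these 6 spots, an alternative chosen after seeing the data, normexp gave -2.14 for AGT and a median of 0.30. In the deposited log2 values AGT differed by -0.39 and the median gene by 0.73. Within RPTEC/TERT1, the difference of array 2 minus array 1 lay between -4.23 and -1.50 under every way of making the levels.

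ACE, angiotensin-converting enzyme, is a brush border and endothelial peptidase that also degrades bradykinin. Among the 5 genes that entered the test it had the smallest range. Probe A_33_P3229288, on the plus strand at chr17:61574915-61574974, had processed signals of 137 on HK-2 array 1, 292 on HK-2 array 2, 174 on RPTEC/TERT1 array 1 and 163 on RPTEC/TERT1 array 2, all well above background. Scaled to the 75th percentile of the array these were 34.7%, 39.0%, 35.6% and 38.0%, and the levels were -1.53, -1.36, -1.49 and -1.39. The range of ACE over the arrays was 0.17 log2 units, and 98.9% of the genes tested ranged by as much or more. This range is close to the noise between spots. It rose to 1.03 after normexp correction and to 0.55 in the deposited log2 values, with HK-2 array 1 highest, and was 0.13 after normexp without the 6 spots of bright background.

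AGTR1, the AT1 receptor of angiotensin II, was read by A_23_P166616 at chr3:148460067-148460126. Its processed signal was -1.61 on HK-2 array 1, -4.15 on HK-2 array 2, -2.21 on RPTEC/TERT1 array 1 and -3.35 on RPTEC/TERT1 array 2, below the subtracted background on each array. AGTR1 was at the floor throughout and was not tested.

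Between the labelled cell lines, 0 of the 16468 genes tested differed at an adjusted p under 0.05 (limma with Benjamini-Hochberg adjustment), a share of 0%, and 23 genes, 0.140%, had an unadjusted p under 0.05. Of the 8 endothelin and renin-angiotensin genes, 5 were tested, and 0 were called at either threshold. EDN1 stood at -2.24 ± 4.26 (SD, n = 2) under the label HK-2 and at -2.10 ± 4.53 (SD, n = 2) under the label RPTEC/TERT1, a difference of -0.14 with a standard error of 3.04. For EDN2 the means were -2.98 ± 2.58 and -3.37 ± 2.16 (SD, n = 2 each), with a difference of 0.38 and a standard error of 1.68. The means of these 2 ligands hide arrays that stand far apart within each label, and the groups overlapped.

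AGT had means of -3.10 ± 3.21 and -3.62 ± 2.47 (SD, n = 2 each) and a difference of 0.52 with a standard error of 2.00. For ECE1 the means were -1.32 ± 0.79 and -1.09 ± 0.47 (SD, n = 2 each), a difference of -0.22 with a standard error of 0.61. ACE had means of -1.44 ± 0.12 and -1.44 ± 0.067 (SD, n = 2 each) and a difference of 0.00051 with a standard error of 0.42. All 5 adjusted p-values were 1 (limma with Benjamini-Hochberg adjustment). Standard errors of this size leave room for large differences between the cell lines, and the values do not show that the lines were alike.

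Within a replicate number, which is also a scan day, the difference of HK-2 minus RPTEC/TERT1 changed sign for EDN1, EDN2, ECE1, AGT and ACE. The arrays crossed their labels over all genes, and the share of all genes with such a change was not counted. For EDN1 it was 6.08 for number 1 and -6.36 for number 2, and for EDN2 it was 3.74 and -2.97. For ECE1 the values were 0.67 and -1.12, and for AGT -3.50 and 4.54. For ACE it was only -0.036 and 0.037. Each value compares 1 array with 1 array and was not tested.

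**Figure D3:**
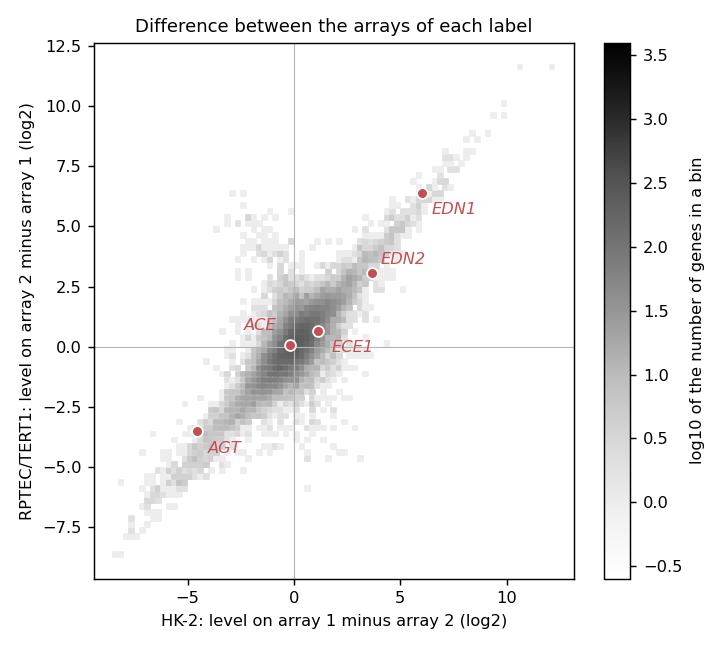
Difference in level between the arrays of each label over the 16468 genes tested, as array 1 minus array 2 of HK-2 (x axis, log2) against array 2 minus array 1 of RPTEC/TERT1 (y axis, log2), with grey for the log10 number of genes in a bin. Red points are the 5 tested genes, with EDN1 at 6.03 and 6.41, AGT at -4.54 and -3.50, and ACE near 0 on both axes.

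The promoters of EDN1, EDN2 and AGT are shown because these genes had the widest ranges. Each is the 250 bases before the transcription start, from RefSeq on GRCh38.p14, read 5′ to 3′ on the strand of the gene. EDN1 has 3 starts in that table, and the most downstream was taken. Capitals mark matches to the motifs searched.
EDN1 promoter, chr6:12290111-12290360, plus strand: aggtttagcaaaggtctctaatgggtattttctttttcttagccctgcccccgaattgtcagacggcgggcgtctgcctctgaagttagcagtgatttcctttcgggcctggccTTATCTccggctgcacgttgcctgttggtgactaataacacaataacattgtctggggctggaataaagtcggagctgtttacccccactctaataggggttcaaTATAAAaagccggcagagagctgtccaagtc
EDN2 promoter, chr1:41484684-41484933, minus strand: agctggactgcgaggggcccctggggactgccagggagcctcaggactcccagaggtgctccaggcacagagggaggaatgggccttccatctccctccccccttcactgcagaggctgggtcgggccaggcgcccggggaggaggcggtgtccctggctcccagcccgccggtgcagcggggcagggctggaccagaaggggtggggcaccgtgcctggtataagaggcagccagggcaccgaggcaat
AGT promoter, chr1:230714123-230714372, minus strand: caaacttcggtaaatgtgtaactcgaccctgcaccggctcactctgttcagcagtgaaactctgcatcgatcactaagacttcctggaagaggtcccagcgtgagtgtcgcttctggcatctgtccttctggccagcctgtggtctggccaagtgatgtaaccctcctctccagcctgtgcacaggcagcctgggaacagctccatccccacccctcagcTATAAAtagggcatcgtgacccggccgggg

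Motifs were searched on both strands. They were the NF-κB consensus, the AP-1 motif TGANTCA, the GATA motif AGATAA and the TATA box TATAAA. EDN1 held TATAAA at 31 to 26 bases before the start and, on the other strand, AGATAA at 136 to 131 bases before the start, where the strand of the gene reads TTATCT. AGT held TATAAA at 30 to 25 bases before the start. EDN2 held no match. The matches do not overlap. None of the 3 windows held a match to the NF-κB consensus or to TGANTCA. Variants of these letters, such as AP-1 sequences other than TGANTCA, were not searched. Of 35116 promoter windows of this length, 9.96% held the NF-κB consensus, 6.57% TGANTCA, 9.17% AGATAA and 10.7% TATAAA. A match is a string of letters and no measured site, and its absence says nothing of the factor. GC content was 49.2% for EDN1, 70.8% for EDN2 and 57.2% for AGT.

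A further 24 genes of the endothelin and renin-angiotensin pathways were listed, among them the receptors, the processing enzymes and the peptidases that degrade the peptides. Of these, 11 were well above background on all 4 arrays and 7 on none. Of all 25683 genes, 13778 were so on all 4 arrays and 7755 on none. The listed genes well above background on no array included AGTR2, MAS1, MRGPRD, CMA1 and KEL. The AT2 receptor and the Mas receptor were thus at the floor beside AGTR1. In the limma fit, 15 of the 24 were tested and 0 were called between the cell lines in either direction, with 0 at an unadjusted p under 0.05. The median difference was 0.0030 over the list and 0.017 over all genes tested. The median range over the arrays was 1.08 for the list and 1.05 for all genes.

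Of the 15 tested, 4 ranged by 2 log2 units or more, against 18.1% of all genes tested. LNPEP, the insulin-regulated aminopeptidase that binds angiotensin IV, was well above background on all 4 arrays, with levels of 0.50 on HK-2 array 1, -1.78 on HK-2 array 2, -1.15 on RPTEC/TERT1 array 1 and -0.14 on RPTEC/TERT1 array 2. It was higher on the arrays where EDN1 was bright. The remaining 3 are named after their values were seen. ANPEP, aminopeptidase N, a brush border enzyme, stood at 0.49 on HK-2 array 1 and 0.47 on RPTEC/TERT1 array 2 and at the floor on the other arrays. ENPEP, aminopeptidase A, which cuts angiotensin II, stood at -1.99 on HK-2 array 2 and -2.43 on RPTEC/TERT1 array 1 and at the floor on the others. KLK1, tissue kallikrein, which releases kinins, had -2.44 and -2.61 on these same 2 arrays. ANPEP and LNPEP therefore had the bright arrays of EDN1, and ENPEP and KLK1 those of AGT. Within HK-2, the direction of ENPEP and of KLK1 turned after normexp correction, to 1.34 and 1.81 for array 1 minus array 2. It also turned in the deposited log2 values, to 0.52 and 0.95, while it held with the 6 spots of bright background left out. Under these 2 settings the median gene stood at 0.99 and 0.73 for array 1 minus array 2. AGTR1, at the floor on every array in the settings of the report, stood at 3.41 and 2.51. The turn is therefore not particular to ENPEP and KLK1.

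**Figure D4:**
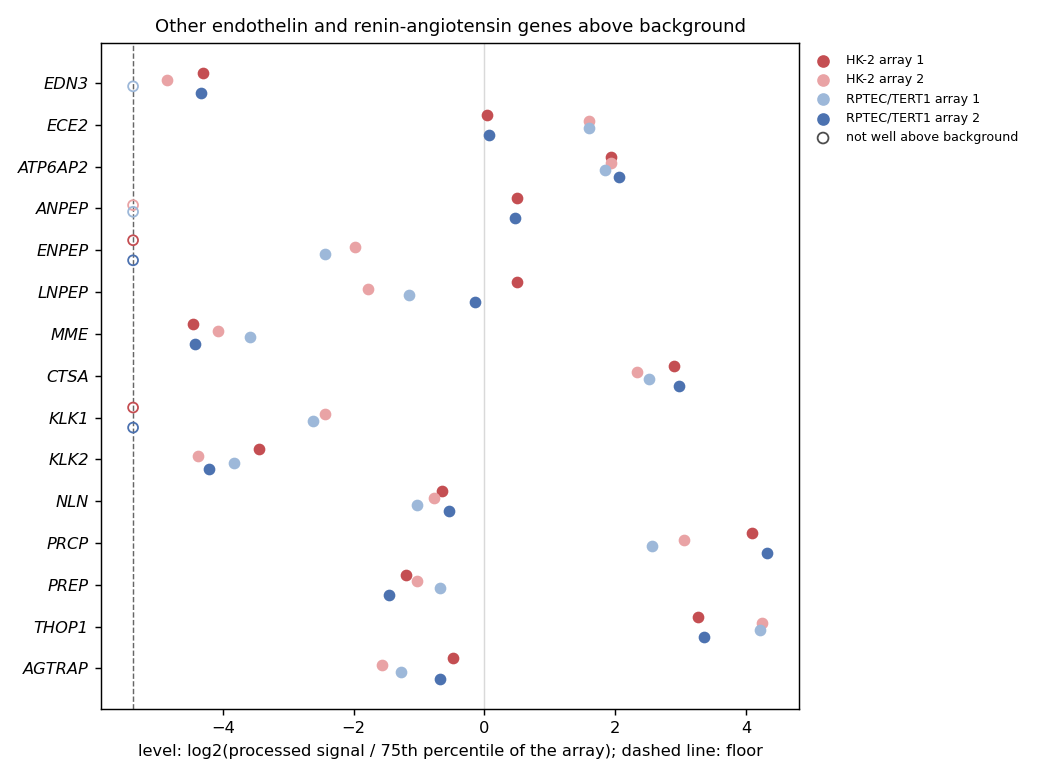
Levels of the other listed endothelin and renin-angiotensin genes tested (x axis, log2 of the processed signal over the 75th percentile of the array) on the 4 arrays. Open points were not well above background and the dashed line is the floor of -5.37. ANPEP and LNPEP are highest on HK-2 array 1 and RPTEC/TERT1 array 2, and ENPEP and KLK1 are above background only on the other 2 arrays.

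The genes most like EDN1 over the 4 arrays were ANKRD34B, DAPP1, NPFFR2, LYPD1 and IFITM1, an interferon-induced membrane protein. Likeness was the root mean square difference of levels centred on each gene, over 4 arrays and 16468 genes, and was 0.116, 0.133, 0.143, 0.147 and 0.150 log2 units in this order. ANKRD34B stood at 0.56 and 0.73 on HK-2 array 1 and RPTEC/TERT1 array 2 and at the floor on the others, as did DAPP1 with 0.52 and 0.70 and NPFFR2 with 0.47 and 0.69. On RPTEC/TERT1 array 1, DAPP1 was marked as well above background although its level there was the common floor. For LYPD1 the levels were 3.29 and 3.20 on these arrays, and -2.90 on HK-2 array 2 and -2.96 on RPTEC/TERT1 array 1. IFITM1 had 3.94 and 3.89 on these arrays, and -2.13 and -2.30 on the other 2. With 4 arrays that share IL-1β and Empa, such likeness is a description.

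Markers of kidney cell types moved with EDN1 to different degrees. The summed scaled signal of 12 proximal tubule markers was 48.2 on HK-2 array 1, 5.38 on HK-2 array 2, 9.34 on RPTEC/TERT1 array 1 and 46.9 on RPTEC/TERT1 array 2. Of the 12, 6 were well above background on all arrays, including LRP2, PAX8 and CDH16, whereas CUBN, HNF4A and ALPL were on none. The sum was led by CDH16, the kidney-specific cadherin, at 4.83, -0.55, -0.55 and 4.97 on the arrays in this order, and by PAX8, a kidney transcription factor, at 4.13, 1.61, 2.79 and 3.73. Other markers of the list did not follow EDN1. LRP2 (megalin) had -3.34, -1.72, -2.77 and -3.06, and GGT1, a brush border enzyme, had -0.88, -0.56, -0.35 and -0.65, each lower within both labels on the arrays where EDN1 was bright. Within HK-2, SLC5A2 (SGLT2) was also lower on array 1, at -3.84 against -3.08, and AQP1 stood at -4.57 and -4.61. For the 5 endothelial markers, whose cells are a known source of endothelin-1, the sums were 0.419, 0.291, 0.220 and 0.278. VWF, KDR and TEK were well above background on no array, PECAM1 only on HK-2 array 1, and CDH5 on all 4, at -3.02 to -2.15. Over the 3 markers of the thick limb and distal tubule the sums were 0.848, 0.195, 0.195 and 1.11, with SLC12A3 well above background on none. AQP2, of the collecting duct, was well above background on none, and the sums of the podocyte, mesangial and fibroblast, and leukocyte lists stayed between 0.053 and 0.62 on every array. The part of any marker in the levels of EDN1, EDN2 or AGT was not tested.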

How the data were processed

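Cy3-labelled RNA of HPTCs given IL-1β together with Empa was hybridised to 1-colour Agilent arrays, 2 for HK-2 and 2 for RPTEC/TERT1. Groups and replicate numbers come from the sample labels. For RNA isolation the methods name innuPREP and the labels RNeasy. Arrays of other conditions were not analysed here.

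The authors deposited the spot intensity read by Agilent Feature Extraction 9.5.3.1, and per the file headers the processed signal is background-subtracted, detrended and not scaled between arrays. A table of log2 values that the authors deposited for these spots runs in the same direction. The steps behind it are not given in the sources used here. The values rank like the median signal less local background, and any further centring or scaling is unknown. Medians were 8.33 and 7.14 on HK-2 replicates 1 and 2 and 6.75 and 6.72 on RPTEC/TERT1 replicates 1 and 2. They served as an alternative.

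Control spots and outlier spots were left out. Levels are log2 of the processed signal over the 75th percentile of all spots that are not controls, no lower than 0.0242 before the log. This floor was set by the array whose lowest scaled signal well above background was highest. Repeat spots were averaged. A probe was well above background where at least 50% of its spots were, and gene values average the probes that were so on 1 array or more. HK-2 was compared with RPTEC/TERT1 by limma 3.58.1 (lmFit and eBayes, R 4.3.3; Python 3.11.15 elsewhere) over genes that were well above background on 2 or more arrays, two-sided, with Benjamini-Hochberg adjustment at 0.05. The fit was tested on simulated data. With 2 arrays per group the number of arrays limits the precision.

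The endothelin and renin-angiotensin genes, the pathway and marker lists and the tests were chosen with earlier results of these data known. Named from the pathway list are genes that were called, or were well above background on all arrays with a range of at least 2 log2 units, together with the 5 genes most like EDN1. Genes of that list at the floor on every array, and others where the text says so, were named after their values were seen. Some listed genes are not reported here by name. Probe positions are those of the files (GRCh37). Of the 11 probes, 10 had a transcript listed under the same symbol in the RefSeq table of GRCh38.p14. The exception was A_23_P115261, the only AGT probe, whose transcript was not found there, so AGT rests on the gene name in the files. Since every slide held 1 of these arrays, slide and array cannot be told apart. Alternatives were normexp (offset 50), the deposited log2 values, quantile normalization, each array's own floor, other filters, the brightest probe, outlier spots kept, a replicate block and each array left out.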

Additional observations from a re-analysis of the deposited data

Results flagged for a closer look

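For 4 of the genes, the replicates of the labelled cell lines moved in opposite directions. The arrays crossed their labels over all genes, so this is not particular to these genes. Correlations were 0.980 and 0.976 between the crossed arrays, against 0.865 within HK-2 and 0.855 within RPTEC/TERT1. Of the genes tested, 4.55% differed by at least 2 log2 units within both labels in the direction of EDN1, and 4.65% in that of AGT. The level on array 1 minus that on array 2 was 6.03 in HK-2 and -6.41 in RPTEC/TERT1 for EDN1. For EDN2 it was 3.65 and -3.05, and for ECE1 it was 1.11 and -0.67. For AGT it was -4.54 in HK-2 and 3.50 in RPTEC/TERT1. Each value rests on 1 pair of arrays, and whether the change between replicates differs between the cell lines was not tested. Replicate number is also scan day.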

How the results depend on the processing

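Under each of the alternatives run, the calls of limma between the lines numbered 0 over all genes, 0 of the endothelin and renin-angiotensin genes and 0 of the pathway list. At an unadjusted p under 0.05 there were 3 to 240 genes, most with no filter on dim genes, against 23 with the settings of the report. The replicate block gave 0 calls and 5 genes at an unadjusted p under 0.05, and it changed no call. Deviations of same-numbered arrays from the means of their labels had a correlation of -0.784, a value that the crossing of the labels also sets, and beyond the number and the scan day no link between these arrays was established.

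Differences of HK-2 minus RPTEC/TERT1 changed sign in some settings. ECE1 went from -0.22 to 0.061 after normexp correction and 0.0087 in the deposited log2 values, where the median gene moved to 0.37 and 0.20. ACE became -0.014 after quantile normalization, EDN1 0.11 with each array's own floor and EDN2 -0.041 after normexp without the spots of bright background, an alternative added after seeing the data. With 1 array left out, the difference ran from -3.35 to 3.06 for EDN1, -1.44 to 2.21 for EDN2, -0.78 to 0.33 for ECE1, -0.084 to 0.085 for ACE and -1.75 to 2.79 for AGT, the lone array being assumed to vary like the others. The cause was not tested.

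Ranges shrank under normexp correction and in the deposited values, to 4.32 and 4.14 for EDN1, 3.02 and 2.43 for EDN2, and 2.70 and 2.23 for AGT. With each array's own floor they rose to 7.02 for EDN1 and 5.27 for AGT, and EDN2 stayed at 3.74. With the brightest probe that of EDN1 was 7.54. The common floor thus limits the ranges of EDN1 and AGT under the settings of the report. With only genes above background on all 4 arrays, EDN1, EDN2 and AGT had no value. Signal over background limits the dim arrays of EDN1, EDN2 and AGT and the receptors on every array.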

Other observations

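Some listed pathway genes with a range under 2 log2 units, named here after their values were seen, were well above background on every array. ATP6AP2, an accessory subunit of the vacuolar proton pump, ranged by 0.22 over the arrays, with 1.94 on both arrays labelled HK-2, 1.84 on RPTEC/TERT1 array 1 and 2.06 on RPTEC/TERT1 array 2. ECE2, a second endothelin-converting enzyme, stood at 0.040 on HK-2 array 1 and 0.072 on RPTEC/TERT1 array 2, and at 1.60 on each of the other arrays. PRCP, which cuts angiotensin II, stood at 4.09 on HK-2 array 1, 3.06 on HK-2 array 2, 2.57 on RPTEC/TERT1 array 1 and 4.32 on RPTEC/TERT1 array 2. AGTRAP, which binds the AT1 receptor and promotes its internalisation, had -0.48, -1.56, -1.27 and -0.68 on these arrays.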
